A study of Mus musculus with 3 samples.

Results

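The metallothioneins *Mt1*, *Mt2* and *Mt3*, the zinc-sensing transcription factor gene *Mtf1* and the zinc exporter gene *Slc30a1* were described across retinal cell classes in 3 single-cell libraries. These 5 genes were chosen by symbol from the 32287 features of the library matrices, and they were proposed with results of these data in view, from their levels in Müller glia (MG). Those levels are therefore given as a description. The question put to the data was whether a higher level in treated retinas was seen in MG alone or in every class of the library.

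Metallothioneins are small proteins rich in cysteine that bind zinc and copper and buffer free metal in the cell. MTF1 is a zinc-finger transcription factor that binds metal response elements in the promoters of *Mt1*, *Mt2* and *Slc30a1* when cytosolic zinc is high, and ZnT1, the product of *Slc30a1*, moves zinc out of the cell across the plasma membrane. *Mt1* and *Mt2* are also induced by glucocorticoids, inflammatory cytokines and oxidative stress, and in the retina they are known as genes of MG and astrocytes that respond to injury. *Mt3* is the brain-enriched member, abundant in neurons and glia of the central nervous system.

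The metallothionein genes lie side by side on chromosome 8 (GRCm38, GENCODE vM21). *Mt1* (ENSMUSG00000031765) spans chr8:94179082-94180327, *Mt2* (ENSMUSG00000031762) chr8:94172664-94173568 and *Mt3* (ENSMUSG00000031760) chr8:94152607-94154146, all on the plus strand with 3 exons each. *Mtf1* (ENSMUSG00000028890) spans chr4:124802104-124849800 with 11 exons, and *Slc30a1* (ENSMUSG00000037434) spans chr1:191906767-191913247 with 2 exons, both also on the plus strand. The coding sequences of the metallothioneins are shown because they carry the feature that defines the family, with every cysteine codon in capitals.
Mt1: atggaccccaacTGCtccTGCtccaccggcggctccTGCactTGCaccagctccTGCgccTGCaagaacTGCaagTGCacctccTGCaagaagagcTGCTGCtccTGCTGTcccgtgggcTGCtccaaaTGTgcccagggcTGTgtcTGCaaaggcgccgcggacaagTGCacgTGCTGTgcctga
Mt2: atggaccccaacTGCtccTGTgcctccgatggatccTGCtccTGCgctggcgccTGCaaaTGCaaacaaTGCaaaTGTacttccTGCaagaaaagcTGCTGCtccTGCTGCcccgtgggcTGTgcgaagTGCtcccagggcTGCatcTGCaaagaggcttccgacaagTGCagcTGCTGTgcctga
Mt3: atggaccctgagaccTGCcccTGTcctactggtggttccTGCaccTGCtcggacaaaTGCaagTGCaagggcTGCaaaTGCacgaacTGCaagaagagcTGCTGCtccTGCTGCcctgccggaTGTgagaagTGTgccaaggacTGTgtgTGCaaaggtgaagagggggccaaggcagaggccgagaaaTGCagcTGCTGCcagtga
*Mt1* and *Mt2* each held 20 cysteine codons of 61, or 32.8%. *Mt3* held 20 of 68, or 29.4%, against 2.81% in *Mtf1* and 3.58% in *Slc30a1*. The aligned coding sequences of *Mt1* and *Mt2* were 79.6% identical, those of *Mt1* and *Mt3* 68.9% and those of *Mt2* and *Mt3* 69.2%. The longest exact run shared by any pair of these transcripts was 27 bases, for *Mt1* and *Mt3*, and 20 bases for *Mt1* and *Mt2*.

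Upstream sequence is shown for the 3 members whose window before the transcription start held a metal response element core (RefSeq, GRCm38.p6, plus strand). The letters searched were TGCACNC and TGCGCNC on both strands, and capitals mark each match. Each run ends before the earlier of the RefSeq and GENCODE starts.
Mt1, chr8:94178839-94179081: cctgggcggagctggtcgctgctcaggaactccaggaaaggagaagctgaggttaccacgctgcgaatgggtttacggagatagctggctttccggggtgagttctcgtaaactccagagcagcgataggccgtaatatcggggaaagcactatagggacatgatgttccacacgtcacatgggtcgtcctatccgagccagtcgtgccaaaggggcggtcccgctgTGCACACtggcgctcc
Mt2, chr8:94172368-94172617: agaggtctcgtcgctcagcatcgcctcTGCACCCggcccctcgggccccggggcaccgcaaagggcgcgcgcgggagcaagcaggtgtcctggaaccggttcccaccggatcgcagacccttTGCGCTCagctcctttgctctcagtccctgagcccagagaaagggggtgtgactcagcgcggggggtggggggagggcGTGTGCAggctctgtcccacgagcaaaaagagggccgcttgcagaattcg
Slc30a1, chr1:191906531-191906766: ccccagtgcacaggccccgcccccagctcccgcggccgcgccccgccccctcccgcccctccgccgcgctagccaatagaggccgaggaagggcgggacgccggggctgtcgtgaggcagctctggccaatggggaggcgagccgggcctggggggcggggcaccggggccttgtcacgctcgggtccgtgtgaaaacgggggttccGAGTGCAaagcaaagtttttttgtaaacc
In windows of 250 bases before and 50 bases after the RefSeq start, *Mt2* held 4 matches, *Mt1* 3, *Slc30a1* 2, *Mt3* 1 and *Mtf1* 0, and none of the matches overlapped another. The match of *Mt1* before the start began at position -23. Its others, at 2 and 20, lie after the RefSeq start and outside the run shown. Before the start, the matches of *Mt2* began at -223, -128 and -50, and that of *Slc30a1* at -43. Of 32851 windows of the same length over all genes, 25.7% held at least 1 match, 7.11% at least 2, 1.97% at least 3 and 0.517% at least 4. A match is a run of letters and does not show that MTF1 was bound there.

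The libraries came from *Glast-CreERT2; R26-CAG-LSL-Tdt* mice, in which tamoxifen (75 mg/kg, daily from P20) turns on tdTomato in cells with an active *Glast* promoter, that is in MG and in retinal astrocytes. All animals received AAV7m8 vectors with a GFAP promoter at P28. The control group received AAV7m8-GFAP-GFP-LacZsh alone. The CCA group (cell cycle activator) received AAV7m8-GFAP-cyclin D1-p27sh mixed 9:1 with the GFP vector, and the CCANT group received the same mix followed by NMDA at P35 and trichostatin A (TSA) at P37. Retinas were taken at P51 in every group, 2 to 4 retinas were pooled per group, and tdTomato+ cells were sorted and sequenced as 1 droplet library each. There were no replicates, so no test between groups was possible, and every interval given here is an exact 95% interval for counting error only. NMDA and TSA were always given together, so they cannot be told apart.

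The kept cells were those of the table that the authors deposited for all 3 libraries: 3758 control, 3890 CCA and 3278 CCANT cells, with medians of 24236, 20711 and 20722 UMIs. MG made up 3716, 3653 and 2830 of them, and in MG of all passing cells the MG markers summed to 16680, 14250 and 14270 UMIs per 1000000 (CPM). *Cdkn1b*, the target of the p27 hairpin, was at 226.4 CPM in control MG, 84.85 in CCA MG and 106.6 in CCANT MG. A cell was called by Y-linked UMIs or by *Xist* where it held at least 3 of the one and at most 1 of the other. In control 3505 cells were called by Y-linked UMIs and 0 by *Xist*, and in CCA 0 and 3859, so that sex and treatment cannot be told apart in that comparison. In CCANT both calls were made, 1183 by Y-linked UMIs and 1718 by *Xist*. Libraries shared 23 to 38 barcodes per pair among all passing cells and 2 to 8 among the kept cells. Other classes were taken from all 9579 control, 10521 CCA and 10890 CCANT cells that passed the filters on features, UMIs and mitochondrial UMIs, without the tdTomato filter. The 6 metallothionein and zinc genes (the members and *Mt4*) were left out of all clustering.

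*Mt1* and *Mt2* were higher by a factor of 2 or more in MG of both treated libraries as the kept cells were clustered, though not under every definition of MG, and *Mt3* was higher mainly in CCANT, and the sensor *Mtf1* and the exporter *Slc30a1* were near the control level. *Mt1* was at 640.2 CPM in the control library, 1285 under CCA and 1343 under CCANT. The log2 ratio to control came to 1.005 under CCA (0.99 to 1.02) and to 1.07 under CCANT (1.05 to 1.08). Both treated libraries thus lay well above the control and close to each other, with a log2 ratio of CCANT over CCA of 0.06 (0.05 to 0.08). In MG of all passing cells, *Mt1* was at 609.4, 1132 and 1131 CPM, with no step from CCA to CCANT. That definition leaves out a cluster with no name, led by *Lcn2*, *C3*, *Necab2* and *Gfap*, that had more *Mt1* in each library (1216, 2332 and 2148 CPM).

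*Mt2*, its neighbour and closest relative, was at 151.5 CPM in the control library, 332.9 under CCA and 373.1 under CCANT. Its log2 ratio to control came to 1.14 under CCA (1.11 to 1.17) and to 1.30 under CCANT (1.27 to 1.33). *Mt3* was at 115.6, 137.7 and 191.3 CPM, with a log2 ratio of 0.25 for CCA (0.21 to 0.29) and 0.73 for CCANT (0.69 to 0.77). For *Mt2* and *Mt3* the control lay below CCA and CCA below CCANT, and for *Mt3* the step from CCA to CCANT (0.48, 0.44 to 0.51) was the larger one. *Mt4*, the squamous epithelial member, had 0 UMIs in MG of every library, with exact upper limits of 0.039, 0.047 and 0.061 CPM.

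*Mtf1* was at 24.16 CPM in the control library, 24.44 under CCA and 22.40 under CCANT. Its log2 ratio to control came to 0.02 under CCA (-0.07 to 0.11) and to -0.11 under CCANT (-0.21 to -0.01). *Slc30a1* was at 14.70, 14.79 and 13.89 CPM, with a log2 ratio of 0.01 for CCA (-0.10 to 0.12) and -0.08 for CCANT (-0.21 to 0.04). Except for *Mtf1* in CCANT, these intervals include 0. With cells thinned to 8000 UMIs, *Slc30a1* in CCANT was at -0.24 (-0.465 to -0.02) and *Mtf1* at -0.16.

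**Figure D1:**
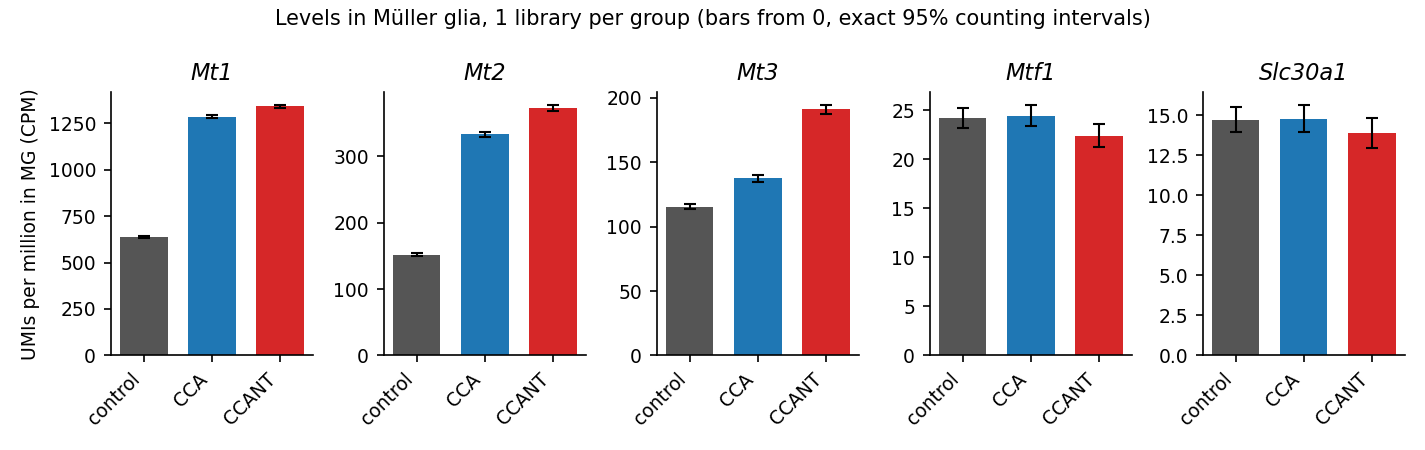
Level of each gene in MG of the kept cells (y axis, CPM, linear from 0, a scale per gene) in the control, CCA and CCANT libraries (x axis), 1 library per bar, with exact 95% counting intervals. *Mt1* goes from 640.2 to 1285 and 1343 CPM and *Mt2* from 151.5 to 332.9 and 373.1, while the bars of *Mtf1* (22.40 to 24.44) and *Slc30a1* (13.89 to 14.79) are level.

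A gene was compared where it reached a mean of 20 CPM over the libraries and 50 UMIs in all. Among the 7592 such genes in MG, 1.03% were higher by 2-fold or more in CCA and 0.408% lower. In CCANT, 1.12% were higher by 2-fold or more and 0.948% lower. Of the 5 members, 4 passed this filter and *Slc30a1* did not. *Mt1* and *Mt2* were past 2-fold higher in both comparisons and no member was past 2-fold lower. Since the members were proposed from this contrast, nothing is read from these counts. In CCA, *Mt2* was the 58th and *Mt1* the 77th highest of the 7592 ratios, *Mt3* the 953rd and *Mtf1* the 3843rd. In CCANT, *Mt2* was the 57th, *Mt1* the 80th, *Mt3* the 136th and *Mtf1* the 5678th. These calls depended on how MG were taken and scaled. *Mt1* in CCA fell under 2-fold with median-of-ratios size factors (0.94). With MG gated on marker UMIs per cell, the log2 ratio of *Mt1* was 0.64 in CCA and 0.84 in CCANT and that of *Mt2* 0.79 and 1.10. In MG of all passing cells it was 0.89 in both for *Mt1*, and 1.045 and 1.14 for *Mt2*. Summed rod markers in MG of all passing cells also differed between libraries, at 230.0, 394.1 and 495.0 CPM over 8 genes with none at 0, and their part in the result was not tested.

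The whole distribution of *Mt1* over MG lay higher in the treated libraries, and its upper tail was longer. Each cell was thinned to 8000 UMIs, so that shallower MG (27 in control, 76 in CCA, 40 in CCANT) dropped out. The median cell then held 4 *Mt1* UMIs in control, 6 in CCA and 7 in CCANT, and the 95th percentile was 12, 33 and 33. Of control MG, 43.24% lay above the control median, against 66.42% of CCA and 70.32% of CCANT MG.

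Above the control 95th percentile were 4.88% of control, 18.87% of CCA and 20.5% of CCANT MG. The 5% of cells with the most *Mt1* held 21.96% of the *Mt1* UMIs in control, 33.32% in CCA and 31.72% in CCANT, so the gene was more unevenly spread in the treated libraries. The highest single cell held 160, 246 and 322 UMIs.

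**Figure D2:**
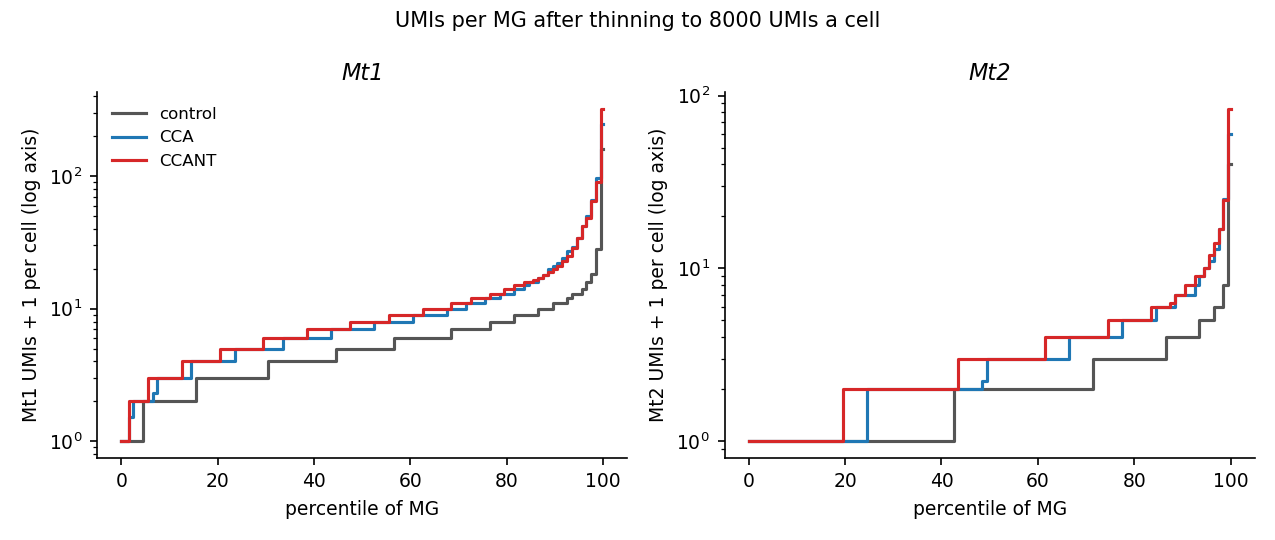
UMIs of *Mt1* (left) and *Mt2* (right) per MG plus 1 (y axis, log) against the percentile of MG in the library (x axis) after thinning every cell to 8000 UMIs, 1 line per library. The CCA and CCANT lines lie above the control line for *Mt1* from the lower percentiles up and part most in the upper tail, where the 95th percentile is 12 UMIs in control and 33 in both treated libraries.

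The share of thinned MG with at least 1 UMI was 95.12% in control, 97.99% in CCA and 98.21% in CCANT for *Mt1*. For *Mt2* it was 57.93%, 75.71% and 80.72%, and for *Mt3* 55.49%, 61.28% and 70.36%. *Mtf1* had a UMI in 17.1%, 16.89% and 15.66% of MG and *Slc30a1* in 11.03%, 10.48% and 8.996%. No order of control and CCA is read from the last 2 genes, whose CPM differed the other way.

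Across single MG, *Mt1* and *Mt2* moved together more than any other pair of the members. Pearson's r of log counts at 8000 UMIs was 0.43 over 3689 control, 0.62 over 3577 CCA and 0.61 over 2790 CCANT cells. For *Mt1* and *Mt3* it was 0.13, 0.10 and 0.16. Each pair that included *Mtf1* or *Slc30a1* stayed between -0.05 and 0.03 in every library, where most cells had no UMI. Cells of a library share its depth and preparation, so these values are descriptions.

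The genes most like *Mt1* across MG, by the lowest of the 3 within-library r values among 7588 genes, were *Tpt1*, *S100a6*, *Gfap*, *Vim* and *Cebpd*. *Tpt1*, a translationally controlled tumour protein gene, had r of 0.22, 0.29 and 0.32 in control, CCA and CCANT. *S100a6*, a calcium-binding protein gene, had 0.21, 0.30 and 0.34. *Gfap*, an intermediate filament gene of reactive glia, had 0.19, 0.25 and 0.25, below the r of *Mt1* with *Mt2* in each library. *Gfap* was at 22.73 CPM in the control library, 73.96 under CCA and 95.51 under CCANT, and *S100a6* at 304.6, 501.2 and 734.9.

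Within MG, *Mt1* differed more between clusters than between libraries. Clustering without the members gave 5 clusters of MG with at least 20 cells in each library and 2 cycling clusters with 0 and 2 control cells. Most control MG lay in clusters 1 and 4 (2183 and 1248 cells), and most treated MG in clusters 2 and 3 (1195 and 1091 CCA cells, 1380 and 905 CCANT cells), so ratios over all MG compare different clusters. Clusters 1 and 2 were led by genes of resting MG such as *Aqp4*, cluster 3 by *Ccn1*, *Lcn2* and *Fos*, and cluster 4 by interferon-response genes such as *Iigp1* and *Cxcl10*. Cluster 6 (48 control, 194 CCA and 263 CCANT cells) was led by *S100a6*, *Fosl1* and *Flnc*.

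*Mt1* was highest in cluster 6 in every library, at 2895 CPM in the control library, 4825 under CCA and 3033 under CCANT. In cluster 1 it was lowest, at 513.9, 620.8 and 511.6 CPM, and in cluster 2 it was at 751.9, 931.1 and 920.1. Cluster 3 gave 865.9, 1417 and 1594 CPM and cluster 4 gave 738.1, 1170 and 747.4. In the cycling clusters, *Mt1* was at 934.9 and 1184 CPM in CCA and at 1444 and 1046 in CCANT, inside the range of the other clusters.

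The log2 ratio of CCA over control within a cluster was 0.27, 0.31, 0.71, 0.66 and 0.74 in clusters 1, 2, 3, 4 and 6. That of CCANT over control was -0.01, 0.29, 0.88, 0.02 and 0.07. In both comparisons the ratio within each cluster was smaller than over all MG, and in CCANT it was near 0 in clusters 1, 4 and 6, which held 118, 62 and 263 CCANT cells. With the treated library's level in each cluster and the control's share of UMIs per cluster, the log2 ratio of *Mt1* was 0.49 for CCA and 0.06 for CCANT, and that of *Mt2* was 0.53 and 0.22. This weighting rests on clusters 1 and 4, which held few CCANT cells. With the treated library's shares instead, *Mt1* was at 1312 CPM in CCA against 888.2 from the control levels and at 1346 in CCANT against 1003. *Mt2* was then at 336.3 against 213.1 and at 373.4 against 247.3. The control levels used here come mostly from clusters 2, 3 and 6, which held 135, 100 and 48 control cells. The level of *Mt1* was lower in CCANT than in CCA in clusters 1, 4 and 6, while in cluster 2 their counting intervals overlapped. The clusters were formed from genes that differ between the libraries, so their sizes are not read as a result. Without cluster 6, the ratio over all MG was 0.81 for CCA and 0.93 for CCANT, and these within-cluster values were added after the data had been seen.

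**Figure D3:**
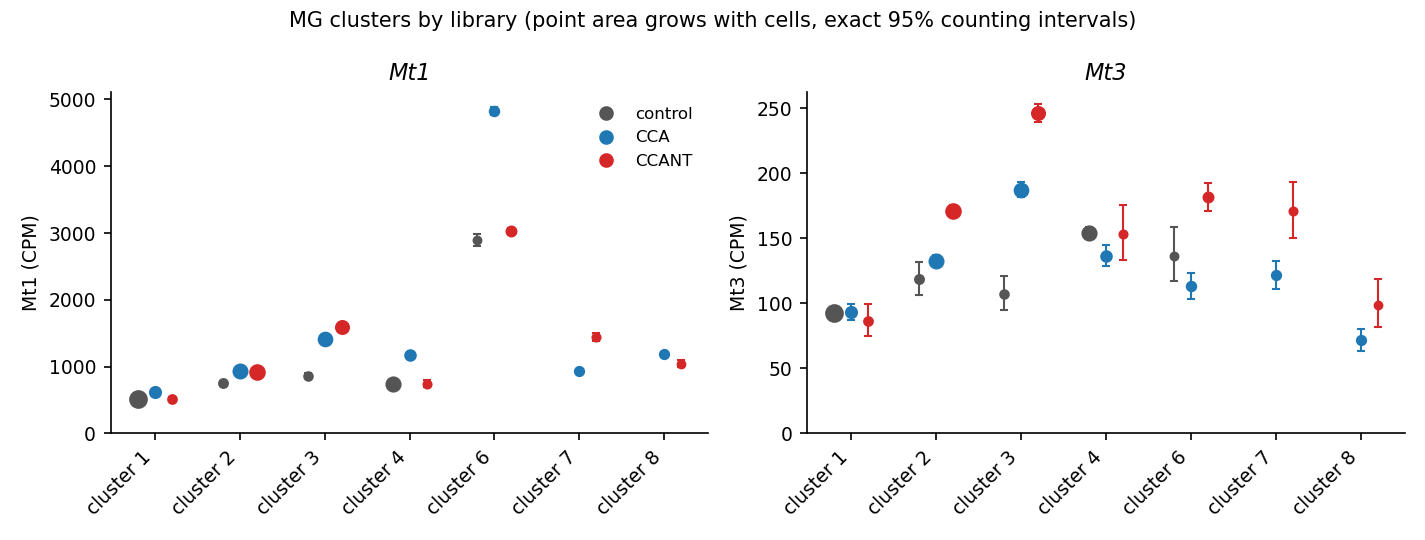
*Mt1* (left) and *Mt3* (right) in CPM (y axis, linear from 0) in each MG cluster (x axis) by library, with point size growing with the number of cells and exact 95% counting intervals. Cluster 6 stands above the other clusters for *Mt1* in all 3 libraries (2895, 4825 and 3033 CPM), while for *Mt3* the highest level is in cluster 3 of CCANT (246.1 CPM).

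*Mt3* had another pattern over clusters than *Mt1*. It was highest in cluster 3 of CCANT, at 246.1 CPM against 107.4 in control and 187.5 in CCA. In cluster 6, where *Mt1* peaked, *Mt3* was at 136.8, 113.2 and 181.6 CPM. With the control's share of UMIs per cluster, the log2 ratio of *Mt3* was -0.04 for CCA and 0.03 for CCANT. With the treated library's shares, it was at 142.4 CPM in CCA against 117.0 from the control levels and at 193.7 in CCANT against 116.6. In clusters 2 and 3, which held most CCANT MG but only 135 and 100 control cells, the ratio of CCANT was 0.53 and 1.20.

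*Mt1* was higher in MG with *Gfap* UMIs, in every library. MG with no *Gfap* UMI at 8000 UMIs were at 583.8 CPM in the control library, 1023 under CCA and 1076 under CCANT. Those with 2 or more were at 1657, 3151 and 2708. So the libraries also differed in MG without a *Gfap* UMI, where the ratio to control was 0.81 for CCA and 0.88 for CCANT on the log2 scale.

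Most of the listed genes known to be induced by tissue dissociation were also higher in both treated libraries. Of 28 immediate-early and heat-shock genes, 23 passed the filter on level, 10 of these were past 2-fold higher in CCA and 9 in CCANT, and none was past 2-fold lower. Of all genes compared in MG, 1.03% were past 2-fold higher in CCA and 1.12% in CCANT. For the listed genes the following values hold. Their median log2 ratio was 0.92 in CCA and 0.86 in CCANT, beside 0.02 and 0.00 over all genes compared, and the summed level of all 28 was 6338, 10990 and 10440 CPM. *Klf2* and *Egr2*, both transcription factors, had the highest CCA ratios, at 2.80 and 2.52, and the chaperone gene *Hsp90aa1* and the AP-1 gene *Jund* the lowest, at 0.21 and 0.23. In CCANT *Hsp90aa1* was lower than in control, at -0.22 (-0.24 to -0.20). Their part in the level of *Mt1* was not tested.

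MG were then split by their immediate-early UMIs at 8000 UMIs. *Mt1* was at 555.3 CPM in the control library, 941.9 under CCA and 1072 under CCANT among MG with the fewest, and at 965.2, 1523 and 1527 among those with the most. The log2 ratio within the low, middle and high stratum was 0.76, 0.75 and 0.66 for CCA and 0.95, 0.88 and 0.66 for CCANT. In each stratum the treated libraries thus lay above the control for *Mt1*, by less than over all MG. For *Mt3* the log2 ratio in the low, middle and high stratum was 0.08, -0.11 and -0.19 for CCA. For CCANT it was 0.55, 0.49 and 0.22.

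All groups received the GFP vector, but alone in the control and as 1 part to 9 of the other vector in CCA and CCANT. Equal GFP UMIs thus do not stand for equal vector received, and strata by GFP are not alike between control and treated libraries. Control MG with 0, 1 and 2 or more GFP UMIs had *Mt1* at 593, 734.8 and 844.9 CPM. Among MG with no GFP UMI (2715, 3490 and 2731 cells), CCA was at 1282 and CCANT at 1338, and the log2 ratios to control were 1.11 and 1.17. With 1 GFP UMI (677, 79 and 54 cells), CCA was at 1235 and CCANT at 1564, with ratios of 0.75 and 1.09. By tdTomato, control MG with 1 UMI (639.8) and with 2 or more (640.5) were level, while CCA MG were at 1112 and 1338 and CCANT MG at 1243 and 1413. By sex, CCANT MG with Y-linked UMIs were at 1243 CPM against 639 in control MG with Y-linked UMIs, a log2 ratio of 0.96 (0.94 to 0.98), and CCANT MG with *Xist* were at 1417. Inside the CCANT library, the log2 ratio of MG with *Xist* over MG with Y-linked UMIs was 0.19 for *Mt1*, 0.23 for *Mt2* and 0.34 for *Mt3*. Among MG with *Xist*, the log2 ratio of CCANT over CCA was 0.14 for *Mt1*, 0.25 for *Mt2* and 0.62 for *Mt3*, each above that over all MG. In other classes of the CCANT library, *Mt1* differed by sex call by 0.48 in rods (0.15 to 0.81), by 0.13 in amacrine cells (0.04 to 0.23) and by -0.05 in bipolar cells (-0.13 to 0.04).

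Outside MG, *Mt1* and *Mt2* were also higher in most classes of the treated libraries, while bipolar, horizontal and endothelial cells and astrocytes had ratios near or below 0 for both genes in CCA. Of 11 classes other than MG and mixed clusters, the interval of *Mt1* lay above 0 in 7 for CCA and in 8 for CCANT, and below 0 in 1 and 2. For *Mt2* it lay above 0 in 6 and 7 classes and below 0 in 2 and 1. For *Mt3* it lay above 0 in 2 and 6, and below 0 in 1 class in CCA (amacrine cells, -0.17) and none in CCANT. For *Mtf1* no class lay above 0 and 1 lay below in CCA, and for *Slc30a1* no interval was free of 0, with no ratio in T or NK cells for CCA, where it had 0 UMIs. These intervals treat UMIs as independent and leave out spread between cells, so the counts are not counts of established rises. How many of all genes had such intervals was not counted. Among all genes compared in CCA, *Mt1* had the 24th highest ratio in rods, the 78th in amacrine cells and the 242nd in microglia and macrophages. It had only the 1682nd of 8108 in pericytes and the 2577th of 7137 in bipolar cells. In CCANT its ranks in these classes, in the same order, were 26, 108, 168, 280 and 5305. At equal depth, the share of cells with an *Mt1* UMI had an interval apart from control only in rods and amacrine cells. In cones it was 14.34% in CCA (10.35 to 19.15) against 13.73% in control (8.701 to 20.21). In T or NK cells it was 33.33% in CCANT (15.63 to 55.32) against 14.47% (7.453 to 24.42). All libraries are single, so a difference that runs through a whole library and one from the treatment cannot be told apart.

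**Figure D4:**
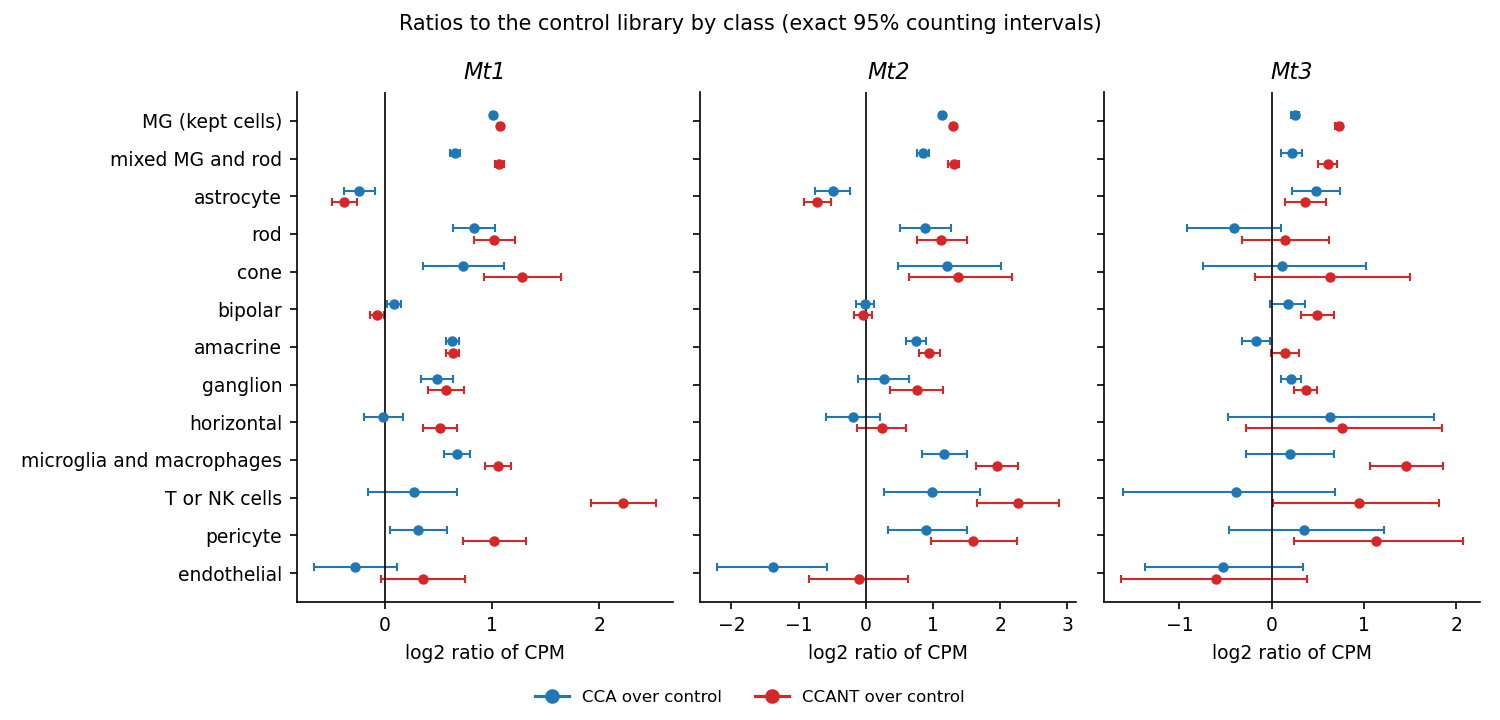
Log2 ratio of CPM to the control library (x axis) for *Mt1*, *Mt2* and *Mt3* in each class (y axis), for CCA (blue) and CCANT (red), with exact 95% counting intervals. Most points of *Mt1* and *Mt2* lie right of 0, those of bipolar cells lie at 0 (between -0.08 and 0.08) and those of astrocytes left of it.

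Rods, the most numerous neurons here (850 control, 1355 CCA and 1274 CCANT cells), had *Mt1* at 63.9 CPM in the control library, 113.3 under CCA and 129.4 under CCANT. The log2 ratio was 0.83 (0.63 to 1.02) and 1.02 (0.83 to 1.21). *Mt2* was at 17.06, 31.42 and 37.16 CPM. Of 3 members compared in rods, none was past 2-fold higher in CCA, where 0.21% of all genes compared were, and *Mt1* and *Mt2* were in CCANT, where 0.405% were. *Mt2* was under 20 CPM in control rods and passed the filter only through the treated libraries, so its count says nothing more than its values. CCANT rods with Y-linked UMIs were at 98.32 CPM of *Mt1* and those with *Xist* at 136.7, so those with Y-linked UMIs were less than 2-fold above the 63.9 CPM of the control rods. Cones (153, 265 and 253 cells) had the lowest *Mt1* of the classes, at 39.7, 65.8 and 96.05 CPM, and log2 ratios of 0.73 (0.36 to 1.11) and 1.28 (0.92 to 1.65).

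The cells named bipolar, second-order neurons with far more *Mt1* than photoreceptors, did not follow. They had 399.6 CPM in the control library, 422.7 under CCA and 379.2 under CCANT, over 467, 672 and 839 cells. Of these, 263, 364 and 465 lay in a cluster led by *Trpm1* and *Pcp2*. A cluster led by the bipolar marker *Grik1* (103, 140 and 166 cells) took no name and is not among them. The log2 ratio was 0.08 (0.02 to 0.15) under CCA and -0.08 (-0.14 to -0.01) under CCANT, and that of *Mt2* was -0.01 and -0.04. *Mt3* was at 46.75, 52.7 and 65.85 CPM, with 0.49 (0.32 to 0.67) for CCANT. None of 4 members was past 2-fold higher, beside 0.0981% of genes compared in CCA and 0.28% in CCANT.

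Amacrine cells, the inhibitory interneurons, had *Mt1* at 179.5, 276.8 and 277.6 CPM and log2 ratios of 0.63 (0.57 to 0.69) in both comparisons. CCANT amacrine cells with Y-linked UMIs (295) were at 224.7 CPM and those with *Xist* (326) at 246.4. Both lay below the level of all CCANT amacrine cells, so cells with no sex call lay above it. Again none of 4 members was past 2-fold higher, beside 0.328% of genes compared in CCA and 0.555% in CCANT. Ganglion cells, the output neurons (144, 79 and 52 cells), were at 109, 153 and 162.1 CPM, with 0.49 (0.34 to 0.64) and 0.57 (0.40 to 0.74). *Mt3* was higher in ganglion cells than in MG of every library, at 216.7, 250.9 and 280 CPM. Horizontal cells (28 to 30 per library) had *Mt1* at 327.5, 323.7 and 466.8 CPM.

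Over the 5 neuron classes with at least 50 cells in each library, the median log2 ratio of *Mt1* was 0.63 in both comparisons, with a range of 0.08 to 0.83 for CCA and of -0.08 to 1.28 for CCANT. The medians of *Mt2* were 0.75 and 0.95, those of *Mt3* 0.12 and 0.37, those of *Mtf1* 0.06 and 0.01 and those of *Slc30a1* -0.03 and 0.05. *Mtf1* was highest in bipolar cells (47.1, 49.5 and 46.2 CPM) and rods (41.2, 38.5 and 38.9), and *Slc30a1* in endothelial cells (126.6, 149.8 and 132 CPM).

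Microglia and macrophages, in a cluster led by *C1qa*, *Ctss* and *Cd74* that also held other immune cells (226, 149 and 155 cells), had *Mt1* at 192.1, 305.4 and 398 CPM. Their markers summed to 12400, 13820 and 12280 CPM in this class and to 53.69, 42.78 and 42.52 in MG of all passing cells. The log2 ratio was 0.67 (0.55 to 0.79) under CCA and 1.05 (0.93 to 1.17) under CCANT. *Mt2* was at 22.7, 51.05 and 87.67 CPM, with 1.17 and 1.95, and *Mt3* at 15.89, 18.23 and 43.67. Of 4 members compared, *Mt2* was past 2-fold higher in CCA, where 1.18% of genes compared were, and *Mt1*, *Mt2* and *Mt3* were in CCANT, where 2.51% were. *Mt3* passed the filter only through CCANT, so its count says nothing more than its values.

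The cells named pericytes, the contractile cells of capillaries (56, 98 and 40 cells), lay in a cluster led by *Rgs5*, *Mgp*, *Acta2* and *Myh11*. Smooth muscle cells of vessels had no class of their own and may be among them. *Mt1* was at 205.7, 254.6 and 417.1 CPM in this class. The pericyte markers summed to 15090, 14150 and 13600 CPM here and to 109.6, 113.6 and 122.4 in MG of all passing cells. The log2 ratio was 0.31 (0.05 to 0.58) under CCA and 1.02 (0.73 to 1.31) under CCANT. *Mt2* was at 39.66, 73.77 and 119.9 CPM. No member was past 2-fold higher in CCA, where 3.54% of genes compared were, and 3 of 4 were in CCANT, where 3.64% were.

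Among the smaller classes, T or NK cells (76, 32 and 24 cells) had *Mt1* at 134.8, 162.1 and 629.5 CPM, and endothelial cells (25, 47 and 31 cells) at 185.9, 152.9 and 237.2. In endothelial cells *Mt2* was at 65.27, 24.96 and 60.65 CPM, and the 6 MG genes described next were at 37.14%, 24.68% and 24.9% of their MG level. In T or NK cells these 6 genes were at 26.0%, 15.16% and 27.39%. Astrocytes, which also carry the tdTomato label, had high levels in every library and a lower level in treated ones, at 1119, 947.6 and 858.7 CPM over 15, 33 and 143 cells. Their log2 ratio was -0.24 (-0.39 to -0.09) under CCA and -0.38 (-0.50 to -0.26) under CCANT, and *Mt3* went the other way, with 0.48 (0.22 to 0.74) and 0.36 (0.14 to 0.59). Of the clusters that took no name, the largest, led by *Lcn2*, *C3*, *Necab2* and *Gfap* (366, 428 and 646 cells), was at 1216, 2332 and 2148 CPM.

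MG transcripts were found in every class, and their part in the levels given above was measured in 1 way. The summed level of 6 MG genes (*Glul*, *Rlbp1*, *Slc1a3*, *Aqp4*, *Kcnj10* and *Car14*, none at 0 in MG) was expressed as a share of its level in MG of the same library, and so was that of *Mt1*. In rods the 6 genes were at 4.57% of their MG level in control, 5.08% in CCA and 5.98% in CCANT, and *Mt1* at 10.49%, 10.01% and 11.45%. In bipolar cells the 6 genes were at 3.02%, 3.46% and 3.53%, and *Mt1* at 65.56%, 37.34% and 33.54%. In amacrine cells they were at 10.16%, 9.52% and 11.19%, and *Mt1* at 29.45%, 24.45% and 24.55%.

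Microglia and macrophages held more MG transcripts, with the 6 genes at 14.5%, 15.65% and 21.61% of their MG level and *Mt1* at 31.52%, 26.98% and 35.2%. Pericytes held 17.77%, 22.67% and 23.91%, with *Mt1* at 33.75%, 22.49% and 36.88%. In CCA pericytes the shares were thus the same, and in both classes the MG transcripts were higher along with *Mt1* from control to CCANT. Of the UMIs of *Mt1* and *Mt2*, *Mt2* made up 10.57%, 14.32% and 18.05% in microglia and macrophages, 13.73%, 14.75% and 16.56% in amacrine cells, 21.07%, 21.71% and 22.31% in rods and 18.98%, 20.65% and 21.76% in MG.

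**Figure D5:**
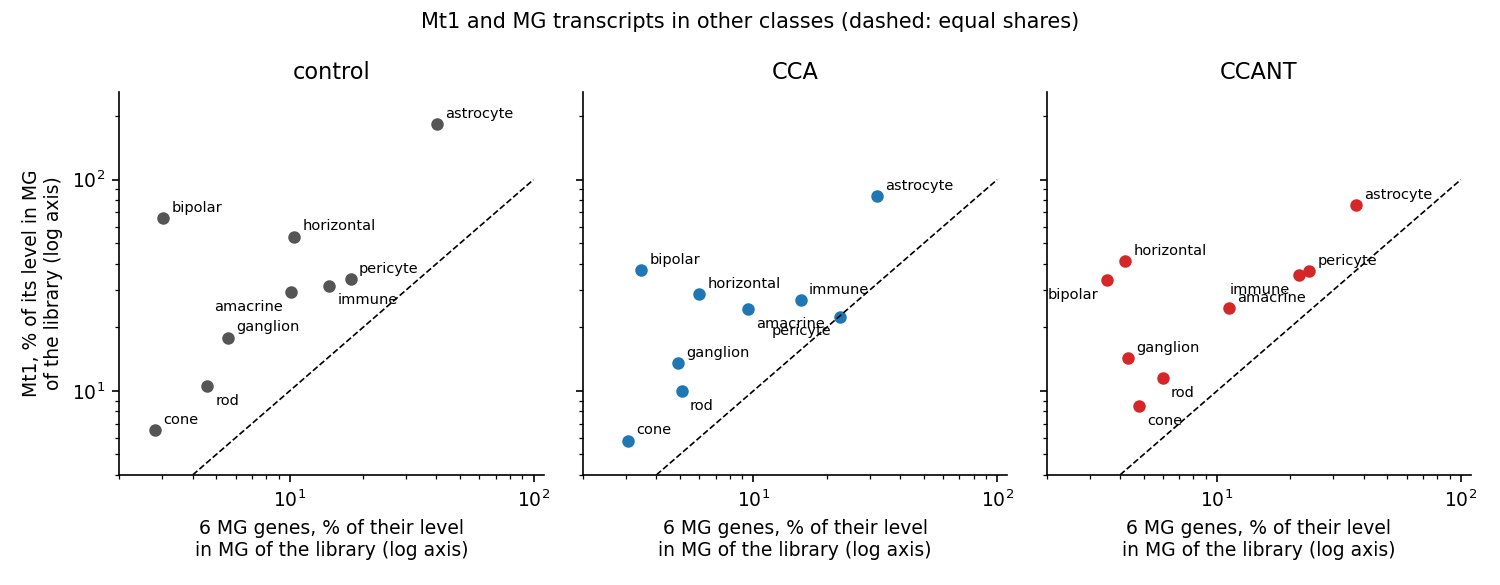
*Mt1* level of each class as a percent of its level in MG of the same library (y axis, log) against the same percent for 6 MG genes (x axis, log), 1 panel per library, with equal shares dashed. Bipolar cells lie far above the line in every panel (65.56%, 37.34% and 33.54%), rods about as far above it as cones, and CCA pericytes on it (22.49% against 22.67%).

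When the level that the 6 genes would give was taken off, *Mt1* in rods was 36.03 CPM in the control library, 55.77 under CCA and 61.78 under CCANT. In amacrine cells 117.6, 169.1 and 151.1 CPM remained, and in bipolar cells 381.1, 383.5 and 339.3. In microglia and macrophages 103.7, 128.3 and 153.7 CPM remained, while for *Mt2* only 2.00, 4.93 and 19.72 did and for *Mt3* -0.74, -2.985 and 5.64. In pericytes 97.4, -2.06 and 146.7 CPM of *Mt1* remained, with 14.28, 6.97 and 44.7 of *Mt2* and 1.93, -2.31 and 6.89 of *Mt3*. In T or NK cells -23.71, -9.51 and 319.7 CPM of *Mt1* remained, and in endothelial cells -40.43, -126.5 and -44.37. The order of the libraries was thus kept in rods and in microglia and macrophages. In both, and in pericytes, *Mt1* in CCANT was then less than 2-fold above control. In amacrine cells CCANT, level with CCA before, was now below it, and in pericytes the CCA level vanished. This subtraction takes 1 source in the same ratio for all genes, which was not tested.

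At 3000 UMIs per cell, *Mt1* had a UMI in 74.59% of control, 85.48% of CCA and 84.74% of CCANT MG. In rods the share was 17.06%, 24.8% and 31.16%, and in cones, the class with the lowest level, 13.73%, 14.34% and 24.51%. In bipolar cells it was 54.39%, 56.99% and 57.45%, and in amacrine cells 28.55%, 43.52% and 45.06%. Microglia and macrophages gave 32.3%, 42.28% and 43.23%, and pericytes 26.79%, 30.61% and 45%. Before thinning, the shares were 98.85%, 99.46% and 97.82% in MG, at medians of 23175, 20690 and 19301 UMIs, and 28.47%, 38.89% and 44.98% in rods, at medians of 5071, 4966 and 5049.

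Over 36 class means from the 3 libraries, Pearson's r with *Mt1* on log2 levels was 0.96 for *Mt2*, 0.58 for *Mt3*, -0.11 for *Mtf1* and -0.02 for *Slc30a1*. The genes with the highest r outside the family were *Tspan15* (0.88), *Palld* (0.86), *Plod2* (0.86), *Npas3* (0.84) and *Gstm5* (0.83). Points of a library share its depth and free RNA, and points of a class share its cells.

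Of 23 further zinc transporter genes, 19 were measured in MG and 9 passed the filter on level, and none of these was past 2-fold in either direction in CCA or CCANT. Their median log2 ratio was -0.01 in CCA and 0.04 in CCANT, and the summed level of all listed genes found among the features was 454.2, 461.8 and 465.2 CPM. The highest CCA ratios were those of the importers *Slc39a10* (0.20) and *Slc39a14* (0.20), the latter at 0.39 in CCANT. The lowest was that of the importer *Slc39a8*, at 9.80, 4.42 and 7.88 CPM with a ratio of -1.15 (-1.33 to -0.97) in CCA, below the filter on level. Next came *Slc39a12* (-0.47), with 15 to 25 UMIs per library.

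Genes of 3 other responses known to include metallothioneins were looked at in the same way. Of all genes compared in MG, 1.03% were past 2-fold higher and 0.408% lower in CCA, and 1.12% higher and 0.948% lower in CCANT. Of 14 glucocorticoid-response genes, 8 passed the filter, with 1 past 2-fold higher and 1 lower in CCA and 1 higher in CCANT, and medians of 0.05 and -0.03. *Cdkn1a*, the cell cycle inhibitor p21, had the highest CCA ratio (2.99) and the kinase gene *Sgk1* the next (0.89), while the lowest were those of the acute-phase gene *Lcn2* (-1.11) and the transcription factor gene *Zbtb16* (-0.76). Of 15 NRF2-response genes, 11 passed and none was past 2-fold in either direction, with medians of 0.09 and -0.02. *Hmox1*, heme oxygenase, was highest at 1.28 (2.00, 4.85 and 5.72 CPM, below the filter), then *Srxn1* at 0.61, and the cystine transporter *Slc7a11* (-0.56) and *Prdx1* (-0.09) were lowest.

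Of 13 copper and iron genes, 9 passed and none was past 2-fold in either direction, with medians of -0.01 and -0.02. *Trf*, transferrin, was highest in CCA at 0.58 (271.5, 406.4 and 491.1 CPM), then the copper chaperone *Ccs* at 0.13. The copper pump *Atp7b* (-0.72) and the transferrin receptor *Tfrc* (-0.27) were lowest. *Socs3*, a target of cytokine signalling through STAT3, was at 37.35, 130.9 and 129.8 CPM, and *Stat3* itself at 145.1, 164.7 and 160.5. The 6 MG genes had medians of -0.18 in CCA and -0.30 in CCANT, with none past 2-fold.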

How the data were processed

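The authors deposited raw UMI counts per gene and barcode, as 1 matrix per library from Cell Ranger 6.1.1 on mm10 with intronic reads counted, and a joint table of counts for their 10926 quality-controlled cells. Counts came from the library matrices, since the joint table holds a median of 93.12% of a control cell's UMIs and 99.85% or more of the others'. For the other classes, a cell needed 2000 or more features, no more than 100000 UMIs and a mitochondrial share of 15% or less. Cells were clustered on 2000 variable genes, 20 neighbours and 7 (kept cells) or 20 components (all passing cells) by the Leiden algorithm (leidenalg 0.10.2, igraph 0.11.9, scikit-learn 1.9.0, Python 3.11.15) at resolutions of 0.3 and 0.5, without the members, and named from markers. Per the study's methods, doublets had been removed from the kept cells. No doublets were removed from all passing cells, on which the classes outside MG rest, except in an alternative that left out the highest 5% of doublet scores.

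CPM were summed UMIs of a gene per 1000000 UMIs of the class. Ratios carry exact intervals for Poisson counts and shares Clopper-Pearson intervals, both at 95% (scipy 1.17.1), for counting error only. Scripts were tested on simulated data. With 1 library per group no p-value was computed. "Past 2-fold" is a size and not a test. All 5 members are named. Of each gene list the text names the 2 highest and 2 lowest CCA ratios among genes with at least 20 UMIs, and of genes like *Mt1* the 5 highest by each of 2 measures. *Gfap*, *Cdkn1b*, *Socs3*, *Stat3* and *Mt4* were added to these. The members and lists were chosen with earlier results of these data known. Alternatives covered scaling, thinning and gating. For *Mt1* alone they also covered doublets, the joint table, cycling cells, immediate-early strata and sex.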

Additional observations from a re-analysis of the deposited data

Results flagged for a closer look

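In a few classes, and in clusters with no name, a metallothionein had a log2 ratio to control opposite in sign to that in MG, with both intervals free of 0. With 1 library per group the difference between classes was not tested. In bipolar cells *Mt1* in CCANT was at -0.075, against 1.07 in MG. In amacrine cells *Mt3* in CCA was at -0.171, against 0.25 in MG. In endothelial cells *Mt2* in CCA was at -1.387, against 1.14 in MG, with 25 control cells behind it. The 6 MG genes were also lower there, at 37.14% of their MG level in control and 24.68% in CCA, and their part was not tested. In astrocytes *Mt1* was at -0.24 in CCA and -0.382 in CCANT, and *Mt2* at -0.493 and -0.719, with 15 control cells. *Mt3* in CCA was at -0.29 in the clusters with no name and at -0.199 in the largest of them, against 0.25 in MG. The clusters with no name are unlike and differ in size between libraries, with 127, 373 and 45 cells in that led by *Hs6st3*. The part of this mix in the ratio was not tested. The largest, led by *Lcn2* and *C3*, carried MG markers, with a median log2 level of 2.0 against 2.98 in the largest MG cluster. Whether its cells are MG was not tested. No group had enough samples to look for a sample that stood apart.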

How the results depend on the processing

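No paired analysis was possible because each group is 1 library, so the replicate numbers only name samples, and no library could be left out. Of the settings run as alternatives for the members in MG and for *Mt1* in neurons, none reversed a direction that counting error left clear. For *Mt3* these alternatives left out the immediate-early strata and the weighting by clusters. Its CCA ratio, 0.25 over all MG, was -0.11 and -0.19 in the middle and high strata and 0.08 in the low. With the control's share of UMIs per cluster it was -0.04, so this rise was not kept in every split. The cause of each shift below was not tested. For *Mt1* in MG the log2 ratio of CCA to control was 0.939 with median-of-ratios size factors, 1.046 as a mean over cells, 1.048 thinned to 8000 UMIs, 0.643 with the marker gate, 0.893 in MG of all passing cells, 1.034 without cycling clusters and 0.749 as the median over immediate-early strata. For CCANT it was 1.036 with size factors, 1.088 as a mean over cells, 0.838 with the gate, 0.892 in all passing cells, 0.879 over strata and 0.96 in cells with Y-linked UMIs. In settings added after the data had been seen, it was 0.809 and 0.926 without cluster 6 and 0.664 and 0.067 as the median within clusters. For *Mt1* in neurons, CCA gave 0.506 thinned, 0.497 with the gate, 0.461 minus the MG part and, as an added setting, 0.73 in cells with no GFP UMI over 4 classes. CCANT gave 0.725 as a mean over cells, 0.512 in cells with Y-linked UMIs, 0.806 in cells with no tdTomato UMI and, as an added setting, 0.903 with no GFP UMI, the last 3 over 4 classes. The other settings of *Mt1* lay within the counting interval of the value reported. *Mt2* ranged from 0.54 to 1.21 in CCA and from 0.20 to 1.33 in CCANT, and *Mt3* from 0.01 to 0.31 and from 0.41 to 0.75. *Mtf1* lay between -0.05 and 0.06 in CCA and between -0.16 and -0.01 in CCANT, and *Slc30a1* between -0.06 and 0.04 and between -0.24 and 0.00. They rest on few UMIs per cell, and classes under 50 cells on few cells.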
